A study of Saccharomyces cerevisiae with 36 samples.

Results

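The genes described here code for the proteins of the large subunit of the cytosolic ribosome of budding yeast, Saccharomyces cerevisiae. Members were chosen by a rule on the name, with earlier results of these data known. They are the genes whose standard name is RPL or RPP with a number and an optional A or B. RPP1, a gene for a subunit of RNase P, is left out. The rule gave 81 of the 7127 features in the deposited tables. They form 35 paralogue pairs, in which an A and a B gene code for identical or related proteins, and 11 genes without a partner. Protein identity within a pair ran from 59.6% for RPP1 and 61.8% for RPP2 to 100%, as for RPL12. The 35 pairs and 11 single genes make 46 proteins.

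The large subunit joins amino acids at its peptidyl transferase centre, passes the new chain through an exit tunnel, and carries a flexible stalk of acidic P proteins that recruits the translation factors. Growing yeast spends a large part of its transcription on ribosomal protein genes, most of which are switched on by Rap1 together with Fhl1 and Ifh1 and are turned down when growth slows or nutrients are short. Most of these genes come in pairs that date from an ancient duplication of the whole genome, and pairs often differ more in their regulatory sequence than in the protein they encode.

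RNA and ribosome footprints were measured in cultures of the W303a wild type and of a cth1Δcth2Δ double mutant, which lacks Cth1 and Cth2, RNA-binding proteins that act on mRNAs with AU-rich elements in iron deficiency. Cultures in Kaiser SC medium at 30°C were collected in iron-sufficient medium (0 h) or 3 h and 6 h after 100 µM BPS (bathophenanthroline disulfonate), which binds ferrous iron, was added. Each lysate, made with cycloheximide in the buffer, gave footprints from RNase I digestion and the 80S fraction (Ribo-seq) and fragmented mRNA (RNA-seq). The 2 strains, 3 times and 2 assays make 12 groups of 3 biological replicates, 36 libraries in all. The 0 h control of each strain is shared by its 3 h and 6 h comparisons. Nothing in the sources used here says whether a strain was 1 clone.

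Total counts ran from 113262 to 6571727 in RNA-seq and from 607936 to 28491058 in Ribo-seq, and levels are given in CPM, counts scaled to library size. A floor of 3 counts came to between 0.457 and 26.5 CPM for RNA-seq libraries, and for Ribo-seq libraries to between 0.105 and 4.93. This covers counting error only. CTH1 had 0 to 6 counts in the 18 mutant libraries and 4 to 711 in the 18 wild-type libraries. CTH2 is listed as TIS11. At 3 h and 6 h it had 1 to 17 counts in mutant libraries against 47 to 10284 in the wild type. These counts fit the strain labels. At 0 h CTH2 was low in both strains, with 0 to 34 counts in mutant and 1 to 56 in wild-type libraries. The strains overlapped there, so CTH2 at 0 h does not tell them apart. The CPM below use TMM scaling within each assay, and changes are log2 fold changes with a standard error (SE) from edgeR's quasi-likelihood test, called at a Benjamini-Hochberg adjusted p below 0.05 over all features tested in the assay. Of the 81 genes, 79 passed the filter on low counts in RNA-seq and 78 in Ribo-seq. RPL39 and RPL43A passed in neither assay and RPL22A only in RNA-seq.

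Several pairs are close to identical in sequence, which sets how well their reads can be told apart, so the start of 3 pairs is printed here from the R64 genome (RefSeq), 5′ to 3′ on the coding strand with bases that differ between the partners in capitals. Among the member pairs whose A to B ratio passed the test at 6 h, these 3 changed most in either assay. RPL41A (YDL184C, chrIV:130407-130484, minus strand) and RPL41B (YDL133C-A, chrIV:221724-221801, minus strand) are shown whole. Counting from 1 at the start codon, they differ at 1 of 78 bases, C9T. RPL15A (YLR029C, chrXII:202501-202590, minus strand) and RPL15B (YMR121C, chrXIII:510259-510348, minus strand) are shown for their first 90 coding bases of 615, with 5 of the 42 differences between them. RPL9A (YGL147C, chrVII:228240-228329, minus strand) and RPL9B (YNL067W, chrXIV:499681-499770, plus strand) are shown for 90 of 576 coding bases, with 8 of 36 differences. None of these 6 genes has an intron in its coding sequence.
RPL41A: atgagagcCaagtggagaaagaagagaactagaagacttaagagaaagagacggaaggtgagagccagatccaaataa
RPL41B: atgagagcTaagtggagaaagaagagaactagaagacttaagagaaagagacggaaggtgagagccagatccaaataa
RPL15A: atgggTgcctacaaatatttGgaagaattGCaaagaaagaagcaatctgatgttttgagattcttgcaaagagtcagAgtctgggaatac
RPL15B: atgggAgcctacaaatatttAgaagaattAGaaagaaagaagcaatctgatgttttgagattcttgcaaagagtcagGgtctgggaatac
RPL9A: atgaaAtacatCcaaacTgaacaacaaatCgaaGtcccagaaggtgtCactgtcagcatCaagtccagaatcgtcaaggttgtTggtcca
RPL9B: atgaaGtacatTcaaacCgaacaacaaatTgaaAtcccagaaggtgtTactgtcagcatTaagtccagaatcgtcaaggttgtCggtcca

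Upstream of the start codon, 36 of the 81 genes (44.4%) held ACCCNNACA, the core of the Rap1 motif, on either strand within 500 bases. The same letters were found upstream of 18 of 56 small subunit protein genes (32.1%) and of 329 of 6002 nuclear protein-coding genes (5.48%). In 5 genes the sites and the 15 bases on each side read as follows, with the motif in capitals; they are shown because RPL9A, RPL7A, RPL8A and RPL11B belong to pairs described below whose partner RPL9B, RPL7B, RPL8B or RPL11A is compared with them, and RPL25 is a single gene of the exit tunnel. The RPL9A site lies 301 bases before the start codon and is read on the strand opposite to the gene (chrVII:228616-228654, plus strand). The RPL7A site lies 242 bases before it (chrVII:366224-366262, minus strand), the RPL8A site 230 bases (chrVIII:36241-36279, minus strand) and the RPL11B site 228 bases (chrVII:649121-649159, minus strand), all on the coding strand. The RPL25 site lies 389 bases before it on the opposite strand (chrXV:79935-79973, minus strand).
RPL9A upstream: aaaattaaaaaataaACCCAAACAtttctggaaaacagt
RPL7A upstream: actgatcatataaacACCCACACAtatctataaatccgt
RPL8A upstream: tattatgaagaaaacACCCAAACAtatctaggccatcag
RPL11B upstream: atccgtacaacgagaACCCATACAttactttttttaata
RPL25 upstream: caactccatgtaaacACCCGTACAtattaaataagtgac

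The PAC motif GCGATGAG of ribosome biogenesis genes stood upstream of 1 member (1.23%, against 4.83% of all genes), the RRPE core AAAATTTT upstream of 13 (16%, against 12.4%) and the stress response element AGGGG upstream of 24 (29.6%, against 34.1%), each on either strand. TTATTTAT, the AU-rich element to which Cth2 binds, lay on the coding strand within 300 bases after the stop codon of 4 members (4.94%) and of 6.86% of all genes. Of these 4, 3 were tested, and their RNA changed by -2.88 to -2.36 at 6 h in the wild type and by -2.77 to -2.26 in the mutant, ranges that lie inside those of the other members. A match is a description of the letters in these windows.

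The large subunit genes took up 18.4% ± 0.214 of the mRNA counts in iron-sufficient wild-type cells and 5.41% ± 0.316 after 6 h of chelation (SD, n = 3). The mutant went from 16.3% ± 2.69 to 6.36% ± 0.693. In wild-type RNA-seq they took 18.7%, 18.3% and 18.3% of all counts in the 3 libraries at 0 h, 14.4%, 14.7% and 15.5% at 3 h, then 5.72%, 5.40% and 5.09% at 6 h. All 3 libraries at 6 h lay below all 3 at 3 h, which lay below all 3 at 0 h. In the mutant the RNA shares were 19.3%, 15.4% and 14.2% at 0 h, 12.2%, 16.6% and 14.0% at 3 h, then 6.59%, 6.90% and 5.58% at 6 h, so 0 h and 3 h overlapped and 6 h stood apart. In wild-type Ribo-seq the shares were 12.4%, 12.5% and 11.9% at 0 h, 9.47%, 7.34% and 9.05% at 3 h, then 2.68%, 2.01% and 1.20% at 6 h. Mutant footprints gave 9.86%, 10.9% and 9.30% at 0 h, 5.95%, 8.11% and 8.69% at 3 h, then 2.02%, 2.64% and 1.57% at 6 h. The footprint shares of the 3 times did not overlap in either strain. At 0 h every mutant footprint share lay below every wild-type one. The 56 small subunit genes went from 18.1% ± 0.922 to 4.60% ± 0.600 of the wild-type RNA counts (SD, n = 3) between 0 h and 6 h.

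**Figure D1:**
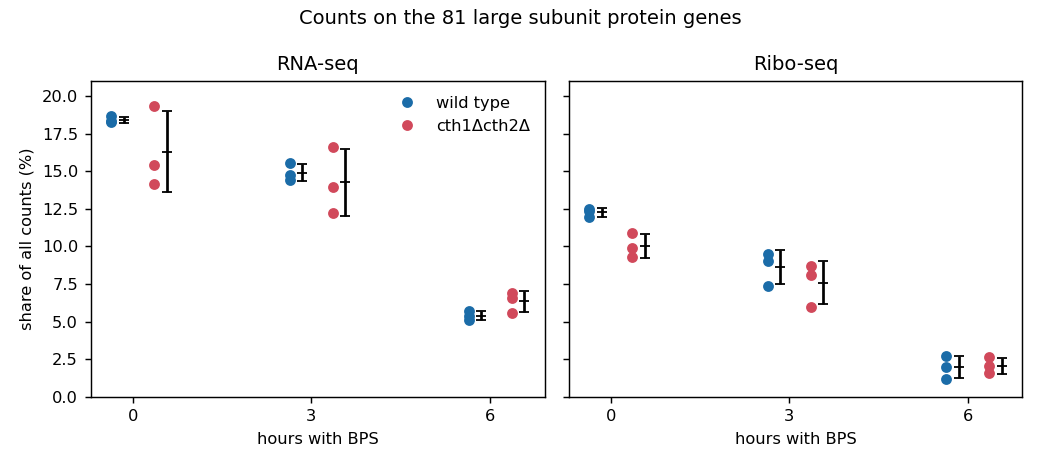
Share of all counts in a library (%, y axis) that fell on the 81 large subunit protein genes, by hours with BPS (x axis) for RNA-seq (left) and Ribo-seq (right). Points are libraries, black marks the mean ± SD of 3; in both strains the 6 h libraries sit below 7% in RNA-seq and below 3% in Ribo-seq.

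Because shares sum to 1 in each library, fewer transcripts per cell, fewer cells with the transcript and more of other transcripts cannot be told apart. The scale matters as well. With library totals in place of TMM, the median of all features rose by 0.62 in the wild type and by 0.71 in the mutant in RNA-seq at 6 h, and the members' median change went from -2.36 to -1.78 and from -2.05 to -1.38, so its distance from the median of all features stayed near the one with TMM. Footprint medians moved less, to -2.73 and -2.45.

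Across the 46 proteins, with each pair as 1, levels per kilobase of coding sequence, with paralogues added, were spread over a wide range. In the wild type at 0 h the RNA level had a median of 10080 CPM per kb, with quartiles of 5409 and 14180. RPL41, whose coding sequence of 25 codons is the shortest, stood highest at 159500, and RPL39, a short protein of the exit tunnel wall, lowest at 36.5. Footprint density in the same cells had a median of 6114 CPM per kb, with quartiles of 3461 and 7829. It was highest for RPP2, at 11100 ± 235 (SD, n = 3). This value is a sum over RPP2A and RPP2B, which code for different P2 proteins of the stalk. RPL32, RPL37 and RPL3 followed at 10040, 9625 and 9287. At 6 h the median density was 924 CPM per kb in the wild type and 842 in the mutant, and RPL3 stood highest in both strains, at 1857 and 1979.

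Equal amounts of most large subunit proteins enter a ribosome, so low values call for a look at the features around the gene. The deposited tables also hold features that have no counterpart in the RefSeq annotation. For 12 members a feature with the neighbouring systematic number on the other strand has exactly the length of an open reading frame that covers 47.8% to 99.3% of the member's coding sequence. The overlap was 99.3% for RPL43A, 96.7% for RPL22A, 96.2% for RPL39, 93.7% for RPL36B, 89.1% for RPL28 and 88.0% for RPL33A, and between 53.7% and 62.5% for RPL12A, RPL12B, RPL10 and RPL8B. It was 49.0% for RPL7B and 47.8% for RPP0. RNA levels in the wild type at 0 h were 11.9, 96.0, 36.5, 189, 1803 and 755 CPM per kb for the first 6 in turn. The 10 members with more than 50% covered had a median of 1233 CPM per kb and the other 71 a median of 5396. Without those 10, 70 of 71 tested members were called lower at 6 h in RNA in either strain. How the authors' counting treated reads on both features is not given in the sources used here, so the levels of these 10 genes are uncertain, and so is the absence of RPL39 and RPL43A from the tests.

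**Figure D2:**
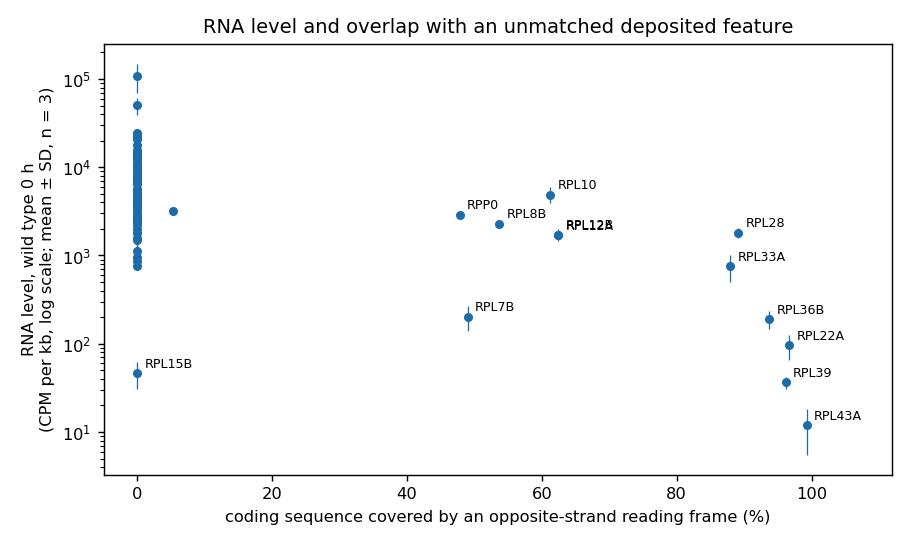
RNA level in the wild type at 0 h (CPM per kb, log scale; mean ± SD, n = 3; y axis) against the share of the coding sequence that an opposite-strand reading frame of an unmatched deposited feature covers (%, x axis), 1 point per gene. The genes most covered, RPL43A, RPL39 and RPL22A, sit at 11.9 to 96.0, below nearly all others, and RPL15B at 46.2 is the low point without such a feature.

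After 6 h with BPS nearly every large subunit gene had fallen, in RNA and in footprints and in both strains. In RNA, 78 of 79 tested genes were called lower in the wild type, where 16.7% of all features tested were called lower, and 77 of 79 in the mutant, where the figure for all features was 20.9%. All 77 were among the 78. In footprints 77 of 78 were called lower in the wild type (24.3% of all features) and 76 of 78 in the mutant (24.5% of all features), and these 76 were among the 77. No member was called higher. The median change in RNA was -2.36 in the wild type and -2.05 in the mutant, against 0.03 and 0.01 over all features. In footprints it was -2.78 and -2.64, against 0.09 and 0.07. The 56 small subunit genes were called lower without exception in all 4 comparisons, with medians of -2.53 and -2.07 in RNA and -2.82 and -2.48 in footprints.

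**Figure D3:**
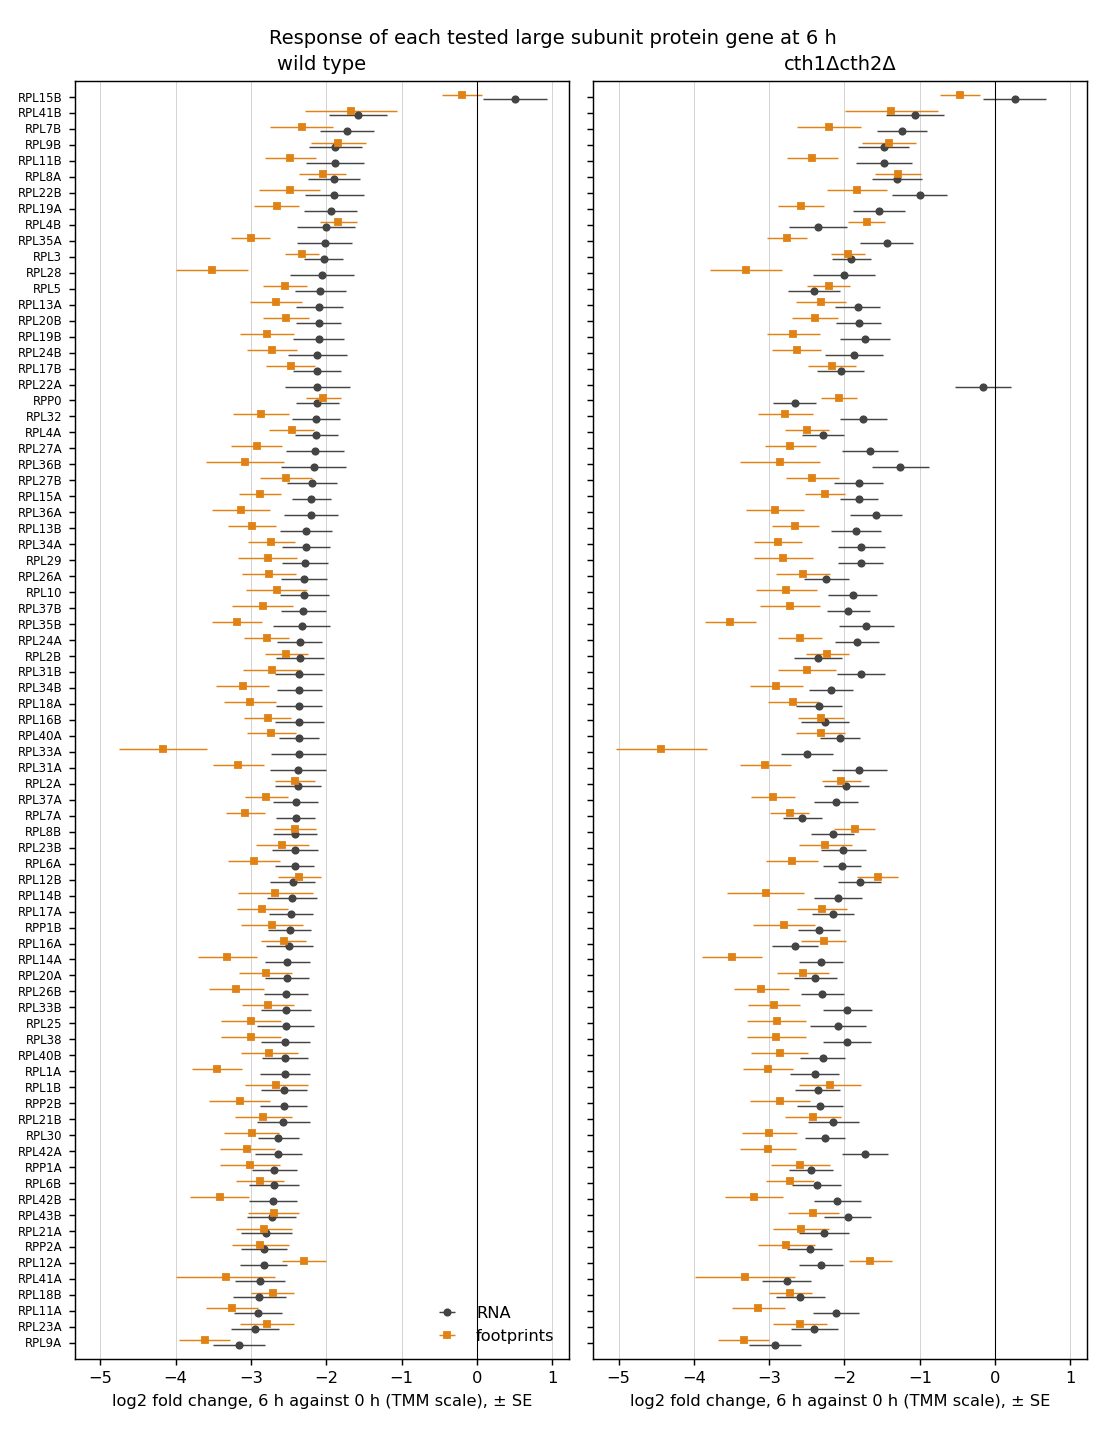
Log2 fold change at 6 h against 0 h (x axis, TMM scale, ± SE) for each of the 79 large subunit protein genes tested in RNA-seq, ordered by the wild-type RNA change, with RNA as circles and footprints as squares, in the wild type (left) and the mutant (right). In wild-type RNA, RPL15B is at 0.50 and the others lie between -3.16 and -1.58; in mutant RNA, RPL15B at 0.26 and RPL22A at -0.16 are the closest to 0.

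The stalk is built on RPP0, which anchors dimers of a P1 and a P2 protein. RPP0 RNA in the wild type was 2531, 2855 and 2736 CPM before BPS, and after 6 h it was 616, 680.3 and 575. The mutant gave 3139, 3438 and 5059 CPM before and 510.0, 715 and 621 after 6 h. The groups were far apart in both strains, and the change was -2.12 ± 0.28 (SE, adjusted p = 5.25e-06) and -2.66 ± 0.29 (adjusted p = 1.55e-06). RPP0 footprints changed by -2.04 ± 0.24 and -2.07 ± 0.24. For the 4 P1 and P2 genes the RNA changes ran from -2.83 (RPP2A) to -2.48 (RPP1B) in the wild type and the footprint changes from -3.15 (RPP2B) to -2.72 (RPP1B), all called. In the ribosome, P1 and P2 are each present in more copies than P0. Footprint density of both P1 genes relative to that of RPP0 was 2.60 ± 0.498 in the wild type at 0 h and 1.39 ± 0.705 at 6 h (SD, n = 3), and for P2 it was 3.26 ± 0.473 and 1.58 ± 0.785. The ratios at 6 h ran from 0.973 to 2.21 for P1, overlapping with the 2.16 to 3.14 seen at 0 h, and from 1.02 to 2.48 for P2, below the 2.89 to 3.80 at 0 h. In the mutant the P1 ratio was 1.97 ± 0.336 at 0 h and 1.26 ± 0.462 at 6 h, with ranges of 1.60 to 2.25 and 0.880 to 1.78 that overlap, and the P2 ratio 2.35 ± 0.297 and 1.37 ± 0.446, without overlap. In RNA the P1 ratio was 7.28 ± 0.253 and 5.20 ± 0.961 in the wild type, and 5.26 ± 1.32 and 6.23 ± 1.67 in the mutant, where the ranges of the 2 times overlapped. An opposite reading frame covers 47.8% of the RPP0 coding sequence, so its counts are uncertain. RPL12A and RPL12B, whose protein sits at the base of the stalk, had footprint changes of -2.30 ± 0.29 and -2.36 ± 0.28 in the wild type and of -1.66 ± 0.29 and -1.56 ± 0.27 in the mutant, among the smaller ones. Their difference between strains did not pass the test (for RPL12B 0.79, adjusted p = 0.354).

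RPL3 and RPL10 reach towards the peptidyl transferase centre, and RPL2, one of the most conserved ribosomal proteins, also lies close to it. RPL3 is the member with the most counts in both assays at 0 h in the wild type and has no 28-base stretch in common with another gene. Its RNA was 13026, 11962 and 13919 CPM in the wild type at 0 h, 9016, 8863 and 9554 at 3 h, then 3263, 3249 and 3007 at 6 h. Its footprints were 11818, 9498 and 11113 CPM at 0 h, 9080, 7410 and 7854 at 3 h, then 2366, 2456 and 1662 at 6 h. Every later group lay below the earlier one in both assays, yet the 3 h step did not pass the test, with -0.50 ± 0.25 in RNA (adjusted p = 0.358) and -0.41 ± 0.22 in footprints (adjusted p = 0.339). The 6 h change was -2.03 ± 0.26 in RNA (adjusted p = 3.28e-06) and -2.32 ± 0.23 in footprints (adjusted p = 3.45e-06). RPL10, RPL2A and RPL2B fell by 2.29, 2.38 and 2.35 on the log2 scale in wild-type RNA and by 2.66, 2.41 and 2.53 in footprints. In the mutant the 3 genes fell by 1.89, 1.98 and 2.35 in RNA.

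RPL5 and RPL11 bind the 5S rRNA and enter the subunit with it as a preformed particle. RPL5 RNA was 2996, 3121 and 2944 CPM in the wild type at 0 h and 660.1, 952 and 536 at 6 h, a change of -2.08 ± 0.34 (adjusted p = 5.89e-05), and its footprints changed by -2.55 ± 0.29. RPL11A fell further than RPL11B in both assays. In wild-type RNA the changes were -2.91 ± 0.32 for RPL11A and -1.88 ± 0.39 for RPL11B, and in footprints -3.25 ± 0.35 and -2.48 ± 0.34. The test of this difference between partners is given with the other pairs. The partners share 67.5% of their 28-base stretches, so their split rests on the remaining positions.

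Proteins of the exit tunnel and its rim, where the signal recognition particle and chaperones dock, include RPL4, RPL17, RPL25, RPL35 and RPL39. All 7 tested genes of this group fell at 6 h in both assays and both strains, and RPL39 could not be tested. RPL25 RNA was 10481, 8880 and 7557 CPM in the wild type at 0 h and 1750, 1719 and 1179 at 6 h, a change of -2.54 ± 0.38 (adjusted p = 1.99e-05). RPL25 footprints were 3769, 3980 and 3776 CPM at 0 h and 743, 434 and 266 at 6 h, a change of -2.999 ± 0.39 (adjusted p = 1.9e-05). RPL4A and RPL4B share 82.9% of their 28-base stretches, so their split rests on the remaining positions. RPL4B had one of the smallest footprint changes, at -1.84 ± 0.25 in the wild type and -1.70 ± 0.25 in the mutant. RPL35A and RPL35B, whose coding sequences differ at 3 of 363 bases, had larger ones. RPL35B footprints were 206, 207 and 182 CPM in the wild type at 0 h and 28.4, 24.7 and 12.4 at 6 h, and in the mutant 188, 233 and 217 at 0 h and 18.9, 24.7 and 8.62 at 6 h. The changes were -3.19 ± 0.33 and -3.51 ± 0.34, while RPL35B RNA changed by -2.33 ± 0.38 and -1.71 ± 0.36.

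RPL40A and RPL40B code for ubiquitin fused to a ribosomal protein and so supply ubiquitin as well. They changed by -2.36 ± 0.27 and -2.55 ± 0.31 in wild-type RNA and by -2.73 ± 0.33 and -2.76 ± 0.38 in footprints, all called and close to the members' medians. The proteins of the tRNA exit site, RPL42 and RPL1, had footprint falls of 3.05 for RPL42A, 3.42 for RPL42B, 3.45 for RPL1A and 2.66 for RPL1B on the log2 scale in the wild type, the last of them smaller than the members' median. RPL28, in which cycloheximide resistance mutations arise, had footprints of 241, 352 and 287 CPM in the wild type at 0 h and 25.4, 30.4 and 21.1 at 6 h. Its footprint change was -3.51 ± 0.48 and its RNA change -2.06 ± 0.42. Footprints relative to RNA, tested below, did not pass (-1.49 ± 0.62, adjusted p = 0.382). An opposite reading frame covers 89.1% of its coding sequence. RPL33A, covered to 88.0%, had the largest footprint changes of all members, -4.17 ± 0.58 in the wild type and -4.43 ± 0.61 in the mutant. Its RNA changes were -2.36 ± 0.36 and -2.50 ± 0.34. Its footprints relative to RNA did not pass in the wild type (-1.84 ± 0.64, adjusted p = 0.249) or in the mutant. RPL33A footprints went from 94.6, 134 and 117 CPM to 7.44, 7.30 and 4.57 in the wild type, with no overlap. Among the members without such a feature, the largest footprint fall in the wild type was that of RPL9A, at -3.61 ± 0.34.

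RPL30 and RPL22B code for proteins that bind their own transcripts and hold back splicing. RPL30 RNA was 7113, 6536 and 7952 CPM in the wild type at 0 h and 1246, 1035 and 1198 at 6 h, and the change of -2.64 ± 0.28 had the smallest adjusted p among the members named here (4.55e-07). RPL22B changed by -1.89 ± 0.39 in wild-type RNA and by -1.003 ± 0.36 in the mutant (adjusted p = 0.0325). RPL22A, which lies almost wholly under an opposite reading frame, went from 29.7, 48.2 and 27.4 CPM to 7.42, 3.62 and 8.18 in wild-type RNA and was called lower (-2.12 ± 0.43). In 6 h replicates 1 and 2 these values are 1 count each, under the floors of 26.5 and 13.9 CPM of those shallow libraries. Its mutant libraries gave 25.4, 12.3 and 15.7 CPM before BPS and 15.7, 22.3 and 13.5 after 6 h, overlapping, with a change of -0.16 ± 0.37 that did not pass the test (adjusted p = 0.758).

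Of the short proteins, RPL29 and RPL38 fell by 2.29 and 2.54 in wild-type RNA and by 2.78 and 3.00 in footprints. The RPL41 genes, each of 25 codons, gave many RNA counts and few footprint counts. They share 82.4% of their 28-base stretches, and how reads on these were counted is not given. The part this has in the low footprint counts was not tested. RPL41B RNA was 8600, 11634 and 5348 CPM in the wild type at 0 h and 2885, 1983 and 3676 at 6 h, and its footprints 307, 399 and 268 CPM at 0 h and 78.8, 78.1 and 148 at 6 h. The change was -1.58 ± 0.39 in RNA (adjusted p = 0.00301) and -1.67 ± 0.62 in footprints (adjusted p = 0.0312). RPL41B was the sole member besides RPL15B that missed the footprint threshold in the mutant, at -1.38 ± 0.61 (adjusted p = 0.071). RPL24A and RPL24B, whose protein joins late and can be dispensed with, fell by 2.35 and 2.12 in wild-type RNA and by 2.79 and 2.72 in footprints.

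RPL15B passed in none of the 4 comparisons at 6 h. RPL15 is a protein of the rRNA core of the subunit, and its A gene supplied 99.6% ± 0.163 of the pair's RNA counts in the wild type at 0 h (SD, n = 3). RPL15B RNA was 39.2, 24.1 and 21.8 CPM in the wild type at 0 h, 36.8, 47.8 and 37.5 at 3 h, then 22.3, 54.3 and 42.4 at 6 h. In the mutant it was 49.6, 55.5 and 15.1 at 0 h and 35.2, 57.7 and 34.2 at 6 h. RPL15B footprints were 55.0, 40.1 and 56.3 CPM in the wild type at 0 h, 55.6, 54.8 and 47.5 at 3 h, then 54.7, 45.0 and 33.9 at 6 h. The times overlapped in each case. None of the changes at 6 h passed the test, with 0.50 ± 0.43 (adjusted p = 0.383) and 0.26 ± 0.42 (adjusted p = 0.652) in RNA and -0.20 ± 0.26 (adjusted p = 0.547) and -0.47 ± 0.26 (adjusted p = 0.153) in footprints. With library totals as the scale RPL15B was called higher in wild-type RNA. RPL15A, by contrast, went from 6890, 7437 and 8438 CPM to 1617, 1599 and 1744 in wild-type RNA, a change of -2.20 ± 0.26 (adjusted p = 1.27e-06). The partners share 23.8% of their 28-base stretches, and the part that reads counted for the wrong partner have in the low RPL15B counts was not tested.

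Other pairs and the members with the largest and smallest changes spread around the medians. RPL7A had RNA of 2168, 2151 and 2112 CPM in the wild type before BPS and 400.5, 420 and 392 after 6 h, a change of -2.41 ± 0.26, and RPL7B changed by -1.72 ± 0.36. RPL8A changed by -1.89 ± 0.34 and RPL8B by -2.42 ± 0.29 in wild-type RNA, and in mutant footprints RPL8A had, at -1.29 ± 0.31, the smallest change of the members called. RPL16A and RPL16B changed by -2.49 ± 0.31 and -2.36 ± 0.32 in wild-type RNA. The largest falls in wild-type RNA were those of RPL9A at -3.16 ± 0.35, RPL23A at -2.95 ± 0.32 and RPL11A, and RPL9A was also lowest in the mutant at -2.92 ± 0.34. In mutant footprints RPL14A followed RPL33A and RPL35B, at -3.50 ± 0.39.

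At 3 h the same genes leaned downwards, but few passed the test. In RNA the median change was -0.52 in the wild type and -0.43 in the mutant. No member was called lower in the wild type (1.48% of all features; 23 members had an unadjusted p below 0.05, and DESeq2 called 1) and 2 were called lower in the mutant (1.02% of all features), RPP0 at -1.10 ± 0.27 (adjusted p = 0.0261) and RPL4A at -1.01 ± 0.27 (adjusted p = 0.0425). All 3 wild-type libraries at 3 h lay below all 3 at 0 h for 55 of 79 members, against 11.8% of all features, and in the mutant for 13 of 79, against 10.1% of all features. Footprints had medians of -0.46 and -0.37. The 3 h libraries lay below the 0 h ones for 69 of 78 members in the wild type, against 16% of all features, and for 34 of 78 in the mutant, against 16.3%. Called lower were 2 members in the wild type (1.81% of all features) and 6 in the mutant (0.828% of all features).

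The footprint changes called at 3 h ran from -2.91 to -1.01. RPL7B, RPL14A, RPL14B and RPL33B had changes of -1.29, -1.17, -1.13 and -1.12 in the mutant that did not pass, within the range of those called. RPL33A footprints, given above for 0 h in the wild type, were 38.8, 9.85 and 47.0 CPM there at 3 h. The mutant had 76.0, 193 and 114 CPM before BPS and 13.6, 7.70 and 28.8 after 3 h. The changes were -1.84 ± 0.51 (adjusted p = 0.0435) and -2.91 ± 0.53 (adjusted p = 0.00635). RPL28 changed by -1.73 ± 0.44 (adjusted p = 0.0282) and -2.24 ± 0.45 (adjusted p = 0.0103). The other 4 called in the mutant were RPL36B at -2.34 ± 0.47, RPL35B at -1.46 ± 0.31, RPL18B at -1.12 ± 0.27 and RPL35A at -1.01 ± 0.24. RPL33A, RPL28 and RPL36B are 3 of the 6 members covered to more than 80% by an opposite reading frame, and RPL36B was at 26.2 CPM or less in every Ribo-seq library. RPL35A and RPL35B share 86.0% of their 28-base stretches. RNA of these genes did not pass at 3 h. Each of these calls was lost when some single library was left out, except that of RPL33A in the mutant. RPL28 and RPL33A also lost their wild-type calls without 3 h replicate 2. In the mutant, 2 footprint calls remained without 0 h replicate 3, 3 without 3 h replicate 1 and 2 without 3 h replicate 2. In the wild type none remained without any 1 of the 0 h replicates and 1 without 3 h replicate 1, and the RNA calls in the mutant fell to 0 without 0 h replicate 3, 3 h replicate 1 or 3 h replicate 2 and to 1 without 0 h replicate 2 or 3 h replicate 3.

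**Figure D4:**
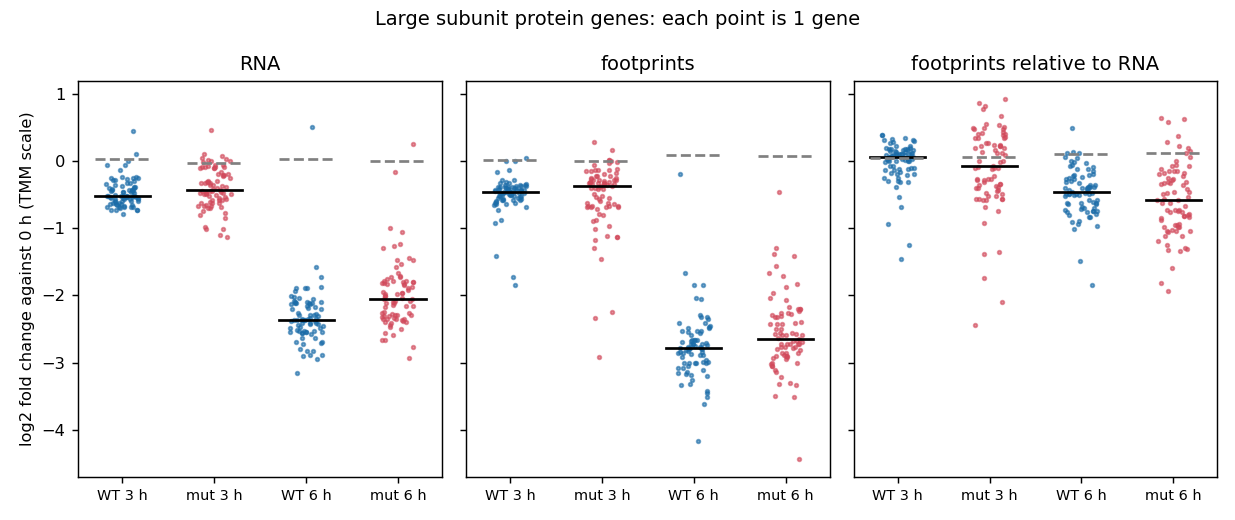
Log2 fold change against 0 h (y axis, TMM scale) of each tested large subunit protein gene at 3 h and 6 h in both strains (x axis; mut is the double mutant), for RNA (left), footprints (middle) and footprints relative to RNA (right). Solid bars are the median of the members and dashed bars the median of all features; at 6 h the members' medians are -2.36 and -2.05 in RNA and -2.78 and -2.64 in footprints.

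Footprints relative to RNA, a measure of translational efficiency, were tested as the difference between the Ribo-seq and the RNA-seq change in a fit of all 36 libraries. At 6 h most members lay below 0, but 1 by 1 they did not pass. In the wild type 71 of 78 changes were negative with a median of -0.46, against 0.10 over all 5290 features tested, none was called lower (0.189% of all features), and 6 were lower at an unadjusted p below 0.05. DESeq2 also called none. Leaving out 1 library moved the wild-type median from -0.91 (without footprint 6 h replicate 1) to -0.20 (without footprint 6 h replicate 3), and without both shallow RNA libraries at 6 h it was -0.26. In the mutant 67 of 78 were negative with a median of -0.58, against 0.11, and the median ran from -0.94 without footprint 6 h replicate 2 to -0.39 without footprint 6 h replicate 3. Called lower was 1 member (0.643% of all features), RPL35B at -1.81 ± 0.49 (adjusted p = 0.0485). No member was called without any 1 of 10 of the 12 mutant libraries at 0 h and 6 h, 4 were called without RNA 0 h replicate 1 and 2 without footprint 6 h replicate 2. Counting the 2 libraries of a lysate as a block raised the number of members called to 14. The share of all features called in that setting is not given here. At 3 h no member was called lower in the wild type (0.0189% of all features; 2 lower at an unadjusted p below 0.05) or the mutant (0% of all features; 6 lower and 3 higher at that p), DESeq2 called none in either, and the medians were 0.06 and -0.08. With library totals as the scale the 6 h medians were -0.96 and -1.07, and those of all features -0.40 and -0.41, so the distance between them stayed about as large.

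The comparison between strains asks whether loss of Cth1 and Cth2 altered these genes or their response. No member passed in any of the 15 tests. In RNA 0.0167% of all features were called at 0 h, 0.45% at 3 h and 0.783% at 6 h, and 0.0167% and 0.0333% for the difference in the 3 h and 6 h responses. In footprints the figures were 0.0188%, 0.865% and 6.27% at the 3 times, and 0.282% and 2.97% for the responses. In footprints relative to RNA they were 0%, 0% and 0.0189%, and 0% and 0%. The number of members with an unadjusted p below 0.05 was at most 3 in any of these tests, and DESeq2 called none. The members' median difference, mutant minus wild type, was -0.16 at 0 h and 0.20 at 6 h in RNA, and 0.38 for the 6 h response, against -0.09 over all features. In footprints it was -0.27 at 0 h, -0.06 at 6 h and 0.21 for the 6 h response. The last pair changed sign with single libraries left out: the 6 h difference ran from -0.34 without mutant 6 h replicate 2 to 0.33 without wild-type 6 h replicate 1, and the response from -0.07 to 0.57 without the same libraries. At 0 h all 3 mutant footprint libraries lay below all 3 wild-type ones for 43 of 78 members, against 6.51% of all features. At 3 h this held for 4 members (3.86% of all features) and at 6 h for 0 (8.96%). The smallest p for the RNA response at 6 h was that of RPL22A, a difference of 1.96 ± 0.57 (adjusted p = 0.191), which rests in part on the wild-type 6 h libraries with 1 count each.

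Within a library the ratio of an A to its B partner needs no scaling between libraries. Its change was tested for 61 pairs, the 35 described here and 26 others in the tables that share a stem and end in A and B. Except for COX5 and NHP6, these 26 are pairs of small subunit protein genes. The test was an exact two-sided permutation test with Benjamini-Hochberg adjustment over the 61. It exchanges times within each strain, or strains within each time. The smallest p such a test can give is 0.005 for times and 0.00025 for strains. At 6 h the RNA ratio changed in 7 of the 35 member pairs, each time towards B, where 24.6% of the 61 pairs were called. The footprint ratio changed in 20 of 35, 13 towards B and 7 towards A, where 57.4% of the 61 were called. Of the 26 others, 8 were called in RNA and 15 in footprints. The shares of member pairs called are thus close to those of the whole set, which holds almost only cytosolic ribosomal protein genes.

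RPL15 changed most among the member pairs, by -2.35 in RNA (adjusted p = 0.0254, exact permutation test). It also changed most of them in footprints, by -2.31 (adjusted p = 0.016, exact permutation test). RPL15A gave 98.9% ± 0.122 of the pair's footprints in the wild type at 0 h and 93.1% ± 1.13 at 6 h (SD, n = 3). For RPL41 the ratio changed by -1.58 in RNA and by -1.81 in footprints. RPL41A made up 26.5%, 24.7% and 47.4% of the pair's RNA counts in the wild type at 0 h and 15.1%, 17.1% and 15.3% at 6 h, and 47.3%, 51.1% and 43.5% of its footprints at 0 h and 21.4%, 22.7% and 22.9% at 6 h. Every 6 h library lay below every 0 h library. Reads that lie in the coding sequence and do not cover the 1 differing base cannot be assigned to either RPL41 gene. RPL9 went from a majority of A at 0 h to near balance in the wild type at 6 h and to a majority of B in mutant footprints. RPL9A gave 74.1%, 74.3% and 71.2% of the pair's RNA in the wild type at 0 h and 47.7%, 52.8% and 61.4% at 6 h, and 72.2%, 71.8% and 72.0% of its footprints at 0 h and 36.6%, 49.0% and 49.5% at 6 h. In the mutant the footprint share fell from 68.2% ± 1.92 to 35.99% ± 4.69. The RPL9 ratio changed by -1.30 in RNA and by -1.80 in footprints, at the same adjusted p as RPL15. RPL7, whose B gene is covered to 49.0%, changed by -1.14 in RNA (adjusted p = 0.0254, exact permutation test), and its footprint change of -0.58 did not pass (adjusted p = 0.0626, exact permutation test). RPL11 changed by -0.85 in RNA (adjusted p = 0.0407, exact permutation test) and by -0.76 in footprints (adjusted p = 0.0226, exact permutation test).

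**Figure D5:**
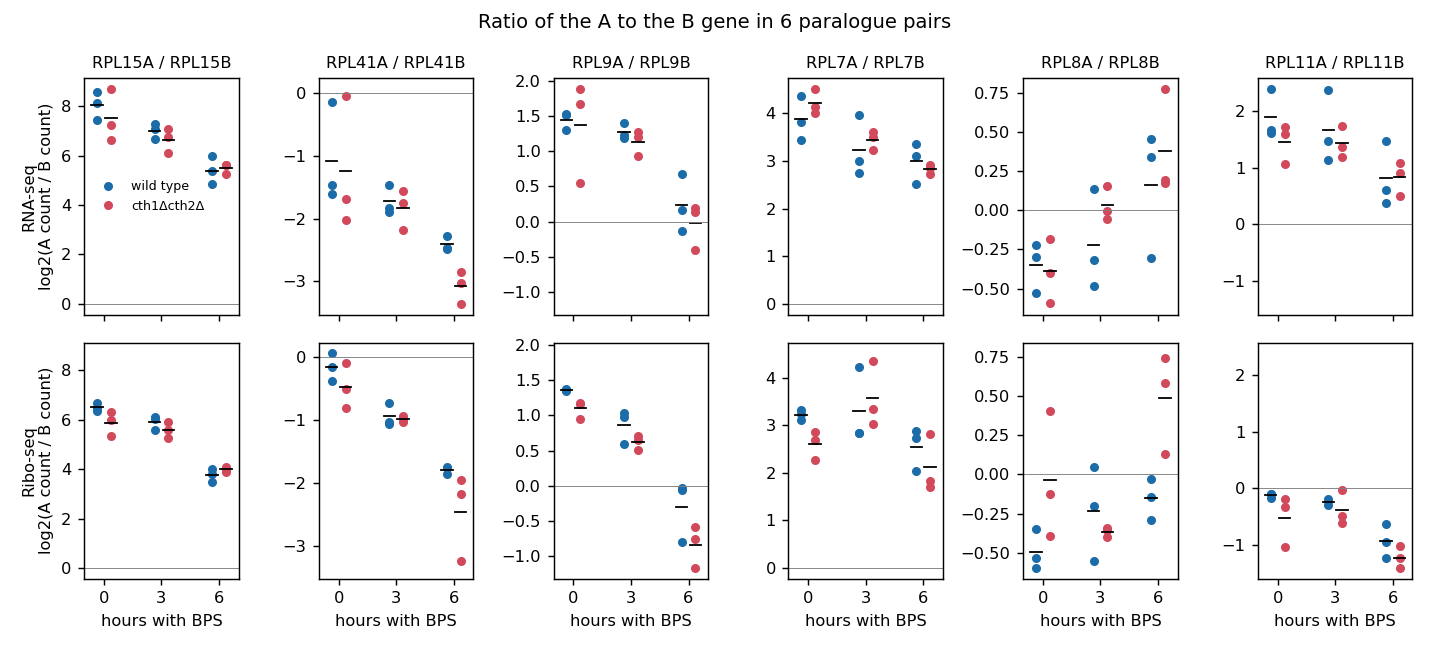
Log2 ratio of the A count to the B count (y axis) by hours with BPS (x axis) in 6 paralogue pairs, for RNA-seq (top) and Ribo-seq (bottom). Points are libraries and black bars means of 3; RPL15, RPL41, RPL9 and RPL11 move towards B in both assays, and the RPL8 footprint ratio moves the other way.

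Not all pairs moved towards B. In footprints RPL35 (0.57), RPL26 (0.51), RPL8 (0.43), RPL13 (0.30), RPL42 (0.27), RPP2 (0.21) and RPL2 (0.16) moved towards A at 6 h. The partners are 99.2% identical for RPL35 and 98.1% for RPL42, so these ratios rest on few positions. The RPL35 change was 0.91 in the mutant and 0.23 in the wild type. Mutant 6 h replicate 3 held 22 footprint counts for RPL35A and 6 for RPL35B. The RNA change of RPL8 was 0.64 and did not pass (adjusted p = 0.0538, exact permutation test). RPL8B is covered to 53.7% by an opposite reading frame, so this ratio is uncertain. The RNA change of RPL43, 1.68, was the second largest in size among the member pairs. It did not pass (adjusted p = 0.0915, exact permutation test), with RPL43A at very low counts. The RPL33 ratio changed by -1.29 in footprints (adjusted p = 0.0226, exact permutation test), and its RNA change of -0.12 did not pass (adjusted p = 0.826, exact permutation test), and RPL33A is the partner covered by an opposite reading frame. RPL1 and RPL4, whose partners are 99.4% and 98.9% identical, changed by -0.71 and -0.68 in footprints, with RNA values of 0.0034 and 0.0033 that did not pass. At 3 h no RNA ratio passed (0% of the 61 pairs; 4 member pairs had an unadjusted p below 0.05), and 5 footprint ratios of member pairs did (14.8% of the 61), RPL22, RPL33, RPL41 and RPL9 towards B by 2.19, 1.65, 0.65 and 0.49 and RPL35 towards A by 0.32 (each with adjusted p = 0.0339, exact permutation test). RPL22A had at most 4.36 CPM in any Ribo-seq library, so the RPL22 ratio rests on very few counts.

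Between strains 1 RNA ratio differed, where 1.64% of the 61 pairs were called. RPL36A over RPL36B was lower in the mutant by 0.61 (adjusted p = 0.0152, exact permutation test), with differences of -0.42, -0.80 and -0.61 at 0 h, 3 h and 6 h, and the footprint difference of 0.34 did not pass (adjusted p = 0.542, exact permutation test). RPL36B is covered to 93.7%. With a pseudocount of 1 the call was lost. Footprint ratios of 4 member pairs differed, where 11.5% of the 61 were called. RPL37, RPL34 and RPL19 had more A in the mutant by 0.43, 0.23 and 0.19 (adjusted p = 0.0244, 0.0244 and 0.0392, exact permutation test), and RPP2 had less by 0.23 (adjusted p = 0.0152, exact permutation test).

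Factors that act on these genes or build their products were counted from lists chosen with results of these data known. Over all features at 6 h, 19.2% were called higher in wild-type RNA, 17.8% in mutant RNA, 28.5% in wild-type footprints and 26.2% in mutant footprints, and the shares called lower are given above. Of 18 regulators, 2 rose and 3 fell in wild-type RNA at 6 h, and 6 rose and 4 fell in footprints, shares near those of all features. RAP1, the activator whose motif is given above, changed by -0.96 ± 0.35 in wild-type RNA (adjusted p = 0.037) and by -1.31 ± 0.34 in the mutant (adjusted p = 0.00395). In footprints it changed by -0.62 ± 0.25 and -2.14 ± 0.26, and the difference of these responses passed the test (-1.52 ± 0.35, adjusted p = 0.0251). RAP1 footprints at 0 h were 246 ± 39.9 CPM in the wild type and 427 ± 113 in the mutant (SD, n = 3). At 6 h they were 159 ± 46.9 and 96.3 ± 6.28, so the difference of responses also holds the unequal levels before BPS. CRF1, a corepressor of ribosomal protein genes, rose by 1.81 ± 0.46 in wild-type RNA. Its mutant RNA, at 19.4 ± 5.59 CPM at 0 h and 22.0 ± 5.04 at 6 h (SD, n = 3), did not pass (0.12 ± 0.44, adjusted p = 0.855). None of the 18 regulators, CRF1 included, passed the RNA test of the difference between the strains' 6 h responses. CRF1 footprints in the wild type were 0.161 ± 0.279 CPM at 0 h and 8.69 ± 4.73 at 6 h (SD, n = 3), and with so few counts at 0 h no fold is given. YAK1, the kinase that activates Crf1, rose by 2.07 ± 0.46 in wild-type RNA and by 2.09 ± 0.53 in footprints. HMO1, a chromatin protein at many of these promoters, fell by 1.09 and 1.13. In the mutant 1 regulator rose and 3 fell in RNA and 4 rose and 3 fell in footprints.

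Of 25 chaperones and late maturation factors of the large subunit, 18 fell in wild-type RNA at 6 h (16.7% of all features) and 21 in the mutant (20.9%), with medians of -1.71 and -1.55, and none rose. In footprints 23 fell (24.3% of all features) and 1, RIA1, rose in the wild type (1.08 ± 0.28), and 22 fell in the mutant (24.5%). Among those that fell were the dedicated chaperones of single large subunit proteins. RRB1, the chaperone of RPL3, changed by -1.91 ± 0.42 in wild-type RNA, ACL4, that of RPL4, by -1.40 ± 0.34, SQT1, that of RPL10, by -1.51 ± 0.42, SYO1, that of RPL5 and RPL11, by -2.14 ± 0.44, and BCP1, that of RPL23, by -2.04 ± 0.39. MRT4, which holds the place of RPP0 until late in maturation, changed by -2.56 ± 0.40. The 34 large subunit genes of the mitochondrial ribosome named MRPL are given for contrast. In RNA at 6 h 15 fell (16.7% of all features) and none rose in the wild type, and 5 rose (17.8%) and none fell in the mutant, with medians of -0.99 and 0.59. In footprints 27 fell in the wild type (24.3%) and 13 rose in the mutant (26.2%). The difference between the strains' responses passed for 21 of 34 in footprints (2.97% of all features) and, with edgeR, for none in RNA, where 25 had an unadjusted p below 0.05.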

How the data were processed

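Counts per feature were analysed as the authors deposited them, 1 table per library with 7127 features, of which 6047 matched a gene of the R64 annotation. Per the submitters' processing notes, cutadapt 3.4, Bowtie 1.1.2, STAR 2.7.9a and genome build R64 were used. Their roles, the counting program, its use of strand and its treatment of reads that map to several places are not given in the sources used here, so counts of near-identical paralogues and of genes under an opposite-strand feature are uncertain. Replicates are biological, per the labels' protocols, and no pair of replicates agreed within sampling noise (chi-square per degree of freedom of at least 3.88 in 36 pairs).

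The counts were fitted with edgeR 4.0.16 in R 4.3.3 (quasi-likelihood F test, TMM scaling within each assay, filterByExpr with a minimum count of 10, 1 mean per group over the 18 libraries of an assay, 12 residual degrees of freedom). Translational efficiency used 36 libraries and 24 residual degrees of freedom. Scripts were tested on simulated counts. Paralogue ratios used a pseudocount of 0.5. DESeq2 1.42.0 was an alternative, with RLE and total-count scaling, TMM without ribosomal protein genes, no low-count filter, a replicate block, only the groups compared, and each library left out. Motifs and 28-base stretches were searched in R64 with Python 3.11.15. The members and lists were chosen with earlier results of these data known. Genes named are those of set roles, up to 3 highest and 3 lowest changes among called members, and the 5 pairs with the largest change in ratio, per comparison. RPL13, RPL19, RPL26, RPL32, RPL14B, RPL33B, RPL34 and RPL37 were named after their values were seen.

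Replicate numbers were checked for pairing by the correlation of deviations from group means. Every pair exceeded 0.1 in RNA for 6 h against 0 h in the mutant and for mutant against wild type at 0 h and 6 h, and in footprints for 3 h against 0 h in each strain and for mutant against wild type at 3 h.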

Additional observations from a re-analysis of the deposited data

How the results depend on the processing

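At 6 h the counts of members called stayed within 1.5 times of those reported in every setting run. Leaving out 1 library gave 78 in wild-type and 74 to 77 in mutant RNA, and 76 to 77 in the footprints of either strain. Without the 2 shallowest wild-type 6 h RNA libraries, a setting chosen after seeing the data, 77 were called in wild-type RNA and RPL41B lost its call. With library totals 70 were called in mutant RNA and 79 in wild-type RNA, 1 of these, RPL15B, as higher. The 3 h and efficiency counts moved, and they are given here without the share of all features called in each setting. They show how far the calls depend on the setting, and not whether the members stand out from all features. In wild-type RNA at 3 h DESeq2 called 1 member, and 2 were called when the fit held no other groups. In mutant RNA at 3 h library totals gave 0, no filter 1, DESeq2 9, only the groups compared 0, and single libraries left out 0 to 2. In wild-type footprints at 3 h DESeq2 gave 5, only the groups compared 0, and leave-one-out 0 to 2; in mutant footprints only the groups compared gave 11 and leave-one-out 2 to 6. For translational efficiency at 6 h library totals gave 1 in the wild type and 9 in the mutant, where the lysate as a block gave 14, only the groups compared 0, and leave-one-out 0 to 4. The lysate block rests on 18 pairs of libraries with a mean correlation of 0.357 and a lowest one of 0.0307. The replicate block changed no count by more than 1.5 times: 78 and 77 members in RNA and 77 and 77 in footprints were called at 6 h, and 0 and 3 in RNA and 2 and 6 in footprints at 3 h. Ratios of pairs rested on single libraries more often. Leave-one-out gave 3 to 10 RNA pairs at 6 h (4 without wild-type 0 h replicate 1 or 2 or mutant 6 h replicate 3, 3 without mutant 6 h replicate 2), 13 to 21 footprint pairs at 6 h (13 without wild-type 0 h replicate 1), 0 to 6 footprint pairs at 3 h (0 without wild-type 3 h replicate 2 or any mutant 0 h replicate, 3 without mutant 3 h replicate 1 or 2), 0 to 1 RNA pairs between strains (0 without wild-type 0 h replicate 3, mutant 0 h replicate 2 or any mutant 6 h replicate) and 1 to 7 footprint pairs between strains (1 without mutant 6 h replicate 3, 2 without wild-type 0 h replicate 1 or 3 or 6 h replicate 3, 7 without mutant 0 h replicate 1 or 2). The RNA pair between strains was lost with a pseudocount of 1 and was left out by a minimum of 50 counts (0 in both). Over all alternatives, single-gene calls of the main fit kept direction and threshold in 4156 cases, lost the threshold in 76 and reversed in 0. Most of these calls are the falls at 6 h, so the totals say little about the calls at 3 h and in efficiency. Genes called only in an alternative are not counted. The cause of lost calls was not tested. Depth limits RPL22A, RPL39, RPL43A and RPL36B most.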

Other observations

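Footprints per RNA are given by how much of its sequence a gene shares, with no test. In the wild type at 0 h the ratio of Ribo-seq to RNA-seq CPM had a median of 0.247 in the 16 members that share more than 50% of their 28-base stretches with another place in the genome, 0.635 in the 36 with 10% to 50%, and 0.639 in the 26 with less than 10%. Spearman's rho between the shared percentage and the ratio was -0.28 over 78 members, which share libraries, and is given as a description. The lowest ratio was that of RPL41B, at 0.0381.

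Medians of the response are given by gene property, with no test. At 6 h in wild-type RNA the 51 tested members with an intron in their coding sequence had a median change of -2.36 and the 28 without one -2.29. The 36 with the Rap1 core upstream had -2.36 and the 43 without it -2.36. In footprints the medians were -2.80 and -2.66 with and without an intron, and -2.79 and -2.78 with and without the Rap1 core.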
